A study of Mus musculus with 13 samples.

Results

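The genes described here are the semaphorins, plexins, neuropilins, ephrins and Eph receptors of mouse mammary organoids, measured on a whole-genome expression array. They were taken by name alone: every probe whose gene name in the scanner files was a semaphorin of classes 3 to 7, a plexin, an ephrin, an Eph receptor, Nrp1 or Nrp2. The rule gave 52 genes on 91 probes, of 27962 gene names on 41174 probes. Of these 52 genes, 46 passed the filter on low signal and were tested. Epha5, Epha6, Epha8, Epha10, Sema3a and Sema3d did not, since none of their probes was well above background on all 3 arrays of any group. A gene that passed through a group where it is bright was bound to pass, so counts over the 46 describe the tested genes and not all 52.

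The study set normal against tumor epithelium in 2 gels. Normal organoids, which are epithelial fragments cut free with collagenase and trypsin, came from mammary glands 3 and 4 of wild-type FVB mice (age not given in the sources used here). Tumor organoids came from the largest mammary tumor of MMTV-PyMT mice aged 12 to 16 weeks, in which the mouse mammary tumor virus promoter drives the polyoma middle T oncogene in mammary epithelium. Fragments of each kind were grown in Matrigel, a reconstituted basement membrane rich in laminin, or in collagen I from rat tail (3 mg/ml), all with FGF2 at 2.5 nM, and RNA was collected on day 4. Each of the 4 groups had 3 arrays, 1 per mouse: normal Matrigel mice A, B and D, normal collagen mice A, B and C, and tumor mice A, B and C in each gel. The sample of normal Matrigel mouse B is labelled as the earlier batch but has 2 arrays, and the one that shares a slide with a sample of the later batch was taken as its later array. A letter names the same mouse in both gels within a tissue, and normal and tumor mice of the same letter are different animals. The fragments are not a sorted cell type, so a level is the sum over every cell left in them.

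Semaphorins are secreted or membrane-bound cues that are read by plexins, cell surface receptors that act on small GTPases and the cytoskeleton. Most class 3 semaphorins need a neuropilin as co-receptor. Ephrins are membrane-bound ligands, anchored by a lipid (ephrin-A) or spanning the membrane (ephrin-B), for the Eph receptor tyrosine kinases, and ligand and receptor signal where cells touch. Known first from axon guidance, both systems also act in epithelial sorting, blood vessel growth, and branching of the mammary gland, and EphA2 and EphB4 have been studied in breast tumors.

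Promoter windows are shown for the Eph receptors that carry the main results: Epha2 and Ephb4, which were lower in collagen I than in Matrigel in tumor organoids, Epha4, which was higher, and Ephb1, which had the largest difference between tissues. Each sequence is the 250 bases before the start site, 5′ to 3′ on the gene's own strand, from RefSeq on GRCm38.p6, with matches to the TEAD motif GGAATG in capitals.
Epha2: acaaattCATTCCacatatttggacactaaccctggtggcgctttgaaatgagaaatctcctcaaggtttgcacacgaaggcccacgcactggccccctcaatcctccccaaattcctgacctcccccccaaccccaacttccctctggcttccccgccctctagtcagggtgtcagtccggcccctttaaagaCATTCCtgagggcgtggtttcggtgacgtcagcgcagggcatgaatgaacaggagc
Ephb4: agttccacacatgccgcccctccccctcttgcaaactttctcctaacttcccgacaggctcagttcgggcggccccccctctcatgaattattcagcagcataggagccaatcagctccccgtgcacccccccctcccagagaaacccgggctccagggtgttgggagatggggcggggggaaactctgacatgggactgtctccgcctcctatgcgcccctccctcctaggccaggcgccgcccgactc
Epha4: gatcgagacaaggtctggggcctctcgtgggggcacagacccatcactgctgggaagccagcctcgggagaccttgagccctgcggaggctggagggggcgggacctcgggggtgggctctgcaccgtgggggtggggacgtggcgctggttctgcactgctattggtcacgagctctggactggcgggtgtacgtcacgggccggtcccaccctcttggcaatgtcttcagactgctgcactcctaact
Ephb1: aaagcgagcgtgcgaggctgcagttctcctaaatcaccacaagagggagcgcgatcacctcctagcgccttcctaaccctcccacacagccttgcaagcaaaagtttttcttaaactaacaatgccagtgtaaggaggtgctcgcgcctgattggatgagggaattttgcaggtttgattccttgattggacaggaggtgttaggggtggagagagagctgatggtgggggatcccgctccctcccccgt
Epha2 lies at chr4:141300971-141301220 on the plus strand, Ephb4 at chr5:137349859-137350108 on the plus strand, Epha4 at chr1:77515089-77515338 on the minus strand and Ephb1 at chr9:102354694-102354943 on the minus strand. Windows of 300 bases, these and the 50 bases after the start, were searched on both strands for GGAATG (TEAD), TGANTCA (AP-1), CACCTG (E-box) and CCGGAA (ETS). Epha2 held GGAATG 2 times, read on the other strand as CATTCC, at 243 and 56 bases before its start, and held none of the other 3 motifs. Ephb4, Epha4 and Ephb1 held none of the 4. Of the 32851 windows of all genes, 14.7% held the TEAD motif, 7.81% the AP-1 motif, 20.2% the E-box and 14.9% the ETS motif. Windows were available for 46 of the 52 guidance genes, a set that is not the 46 tested genes. It includes the untested Epha5, Epha6, Epha8, Epha10, Sema3a and Sema3d. It lacks the tested Efnb3, Plxna1, Plxna4, Sema3b, Sema3f and Sema6a. Of the 60 windows of this set, 10% held the TEAD motif, 5% the AP-1 motif, 13.3% the E-box and 10% the ETS motif. These matches are letters in a window and were not tested for binding.
Levels are log2 signal minus the array's own 75th percentile, so 0 means as bright as that percentile and a level of one probe is not set against that of another. The 75th percentile signal was 383 to 570 on the tumor Matrigel arrays and 671 to 1216 on the other 9, and 56.6% to 58.6% of probes were well above background in tumor Matrigel against 62.1% to 71.4% elsewhere. The spike-in controls lay between -0.32 and 0.36 around the 75th percentile in tumor Matrigel and between -2.28 and -1.47 in the other groups. Comparisons with tumor Matrigel set dimmer arrays against brighter ones, and values under other scalings are given below where they end a call. Each scaling tried brought the arrays to a similar signal over all probes, and none used the spike-ins. The differences are therefore relative to the rest of an array's signal, and whether a call would stand on a spike-in scale was not tested. Arrays of an earlier batch, made from normal Matrigel mice A and B and kept out of the comparisons, had levels of the 46 genes that differed from the later arrays by a median of 0.41 and 0.31. Of the 46 tested genes, 35 were well above background on all 12 arrays. A difference passed when its limma p-value, adjusted by Benjamini-Hochberg over all 17788 genes tested, was below 0.05.

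**Figure D1:**
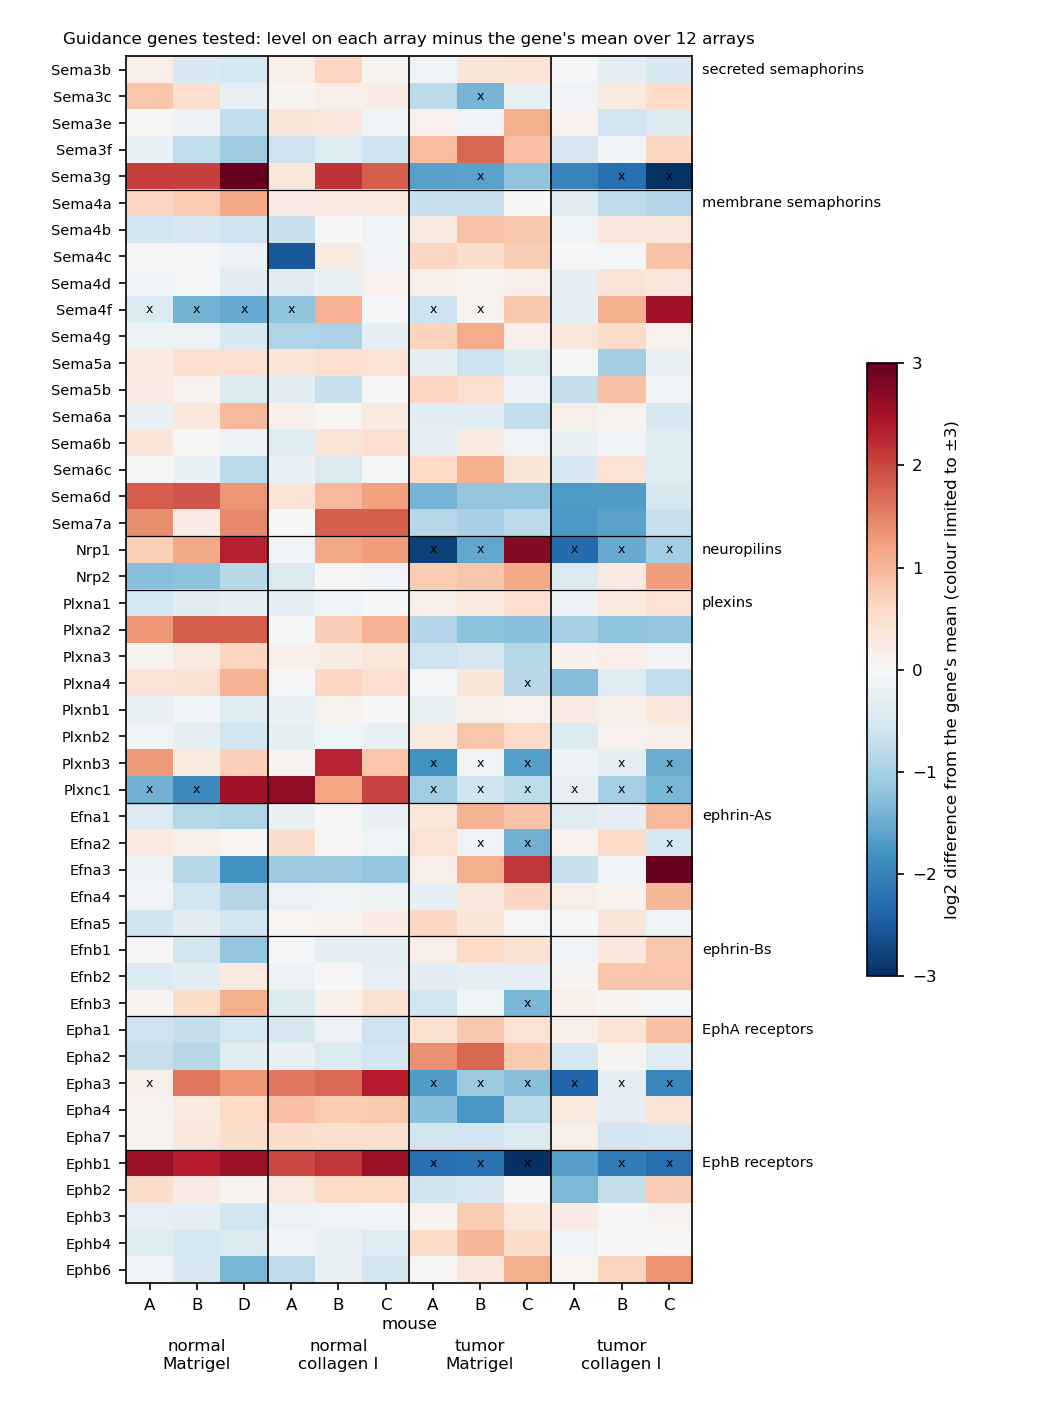
Level of each of the 46 tested genes on each of the 12 arrays, as the log2 difference from the gene's mean over the arrays. Columns are mice within the 4 groups, rows are genes by role, and x marks an array where the gene was not well above background. Ephb1 and Sema3g stand high on all 6 normal arrays and low on all 6 tumor arrays, while Epha2 stands high on the 3 tumor Matrigel arrays.

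Tumor and normal organoids differed in most of these genes when grown in Matrigel. In that gel 30 of 46 passed (65.2%), 15 higher and 15 lower in tumor organoids, where 51.8% of all genes tested passed. The higher ones included Epha2, Nrp2, Sema3f, Efna1 and Ephb4, and the lower ones Ephb1, Sema3g, Sema6d, Plxna2 and Epha4. Of the 46, 31 passed in at least 1 comparison and 15 in none. That share was not counted over all genes, of which 51.8% passed between tissues in Matrigel. In collagen I, 11 of 46 passed (23.9%), 2 higher and 9 lower, where 8.89% of all genes passed. All 11 had passed in Matrigel in the same direction, and these comparisons share mice but no arrays. How many of all genes passing in collagen I did the same was not counted. The lower genes Ephb1, Epha3, Plxnb3 and Sema3g met the signal filter through normal groups alone. With only probes well above background on all 12 arrays, 24 genes passed in Matrigel, 15 higher and 9 lower. In collagen I 8 passed in that run, 2 higher and 6 lower. Of all genes passing in that run, 60.2% were higher in Matrigel and 57.3% in collagen I, so the split by direction depends on the filter. The median difference of the 46 genes was 0.27 in Matrigel and 0.04 in collagen I, beside 0.10 and 0.05 over all genes. Tumor and normal arrays did not overlap for 34 of 46 genes in Matrigel and 23 of 46 in collagen I, against 57.7% and 33.2% of all genes.

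Between gels, the genes that passed did so in tumor organoids. Epha4, Sema3c, Efnb2 and Plxna3 were higher in collagen I than in Matrigel and Epha2, Sema3f and Ephb4 were lower. These were 7 of 46 (15.2%), a smaller share than the 27.6% of all genes tested. In normal organoids 0 of 46 passed by limma, where 0.0394% of all genes did. At an unadjusted p under 0.05 there were 7 of 46 in normal organoids, 4 higher and 3 lower, against 9.05% of all genes. The smallest adjusted p of the 46 in normal organoids was 0.194. The median gel difference of the 46 genes was 0.15 in normal and -0.14 in tumor organoids, beside -0.01 and -0.06 over all genes, and groups did not overlap for 10 of 46 in each tissue, against 21.5% and 38.2% of all genes. A direct test of whether the gel acted differently in tumor and normal organoids passed for 1 gene, Epha2 (2.17% of the 46), where 2.72% of all genes passed. The gel difference of the other 6 genes is therefore not shown to differ between tissues. The gel comparison in tumor organoids and the tissue comparison in Matrigel share the 3 tumor Matrigel arrays, so a gene that is high or low on them enters both, with opposite sign.

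**Figure D2:**
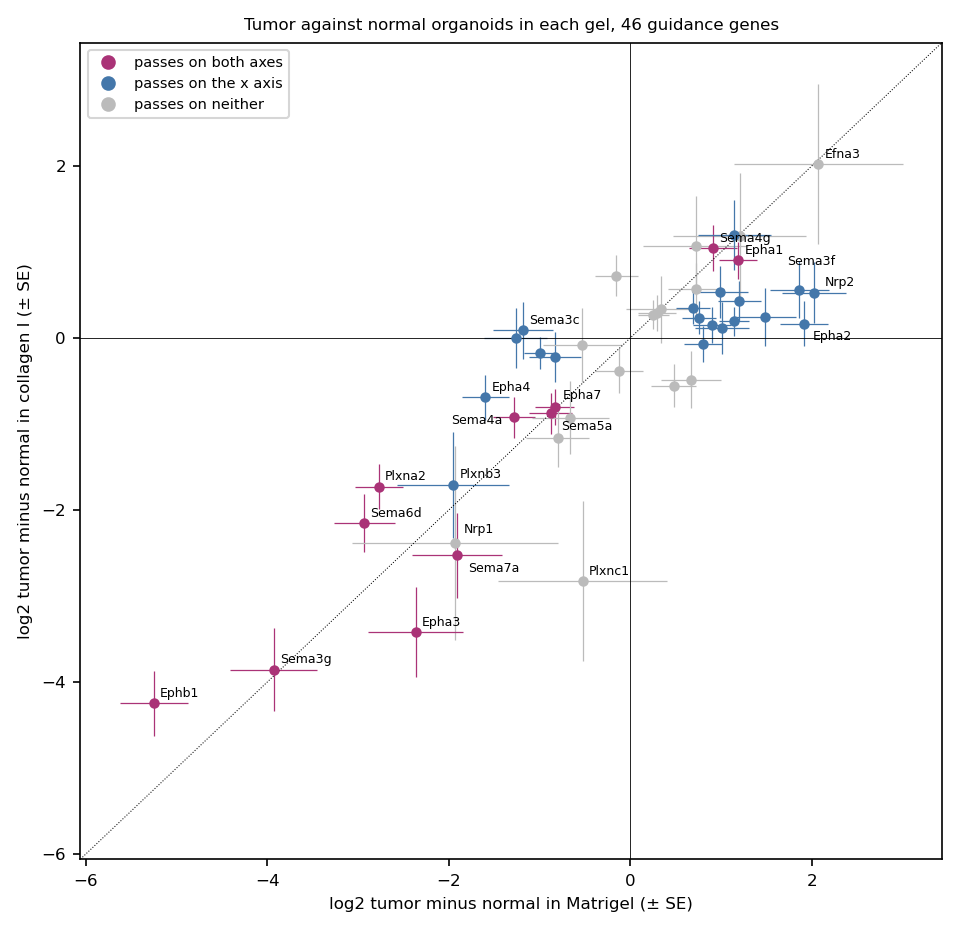
Tumor minus normal difference of the 46 tested genes in Matrigel (x axis) and in collagen I (y axis), in log2 units with standard errors, coloured by the axes on which a gene passed. Ephb1 and Sema3g lie far to the lower left, while Epha2, Nrp2 and Sema3f lie to the right and near 0 on the y axis.

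Among the secreted semaphorins Sema3f, a ligand that binds neuropilin-2, was higher in tumor than in normal organoids in Matrigel and lower in tumor organoids in collagen I than in Matrigel. Its level in Matrigel was 0.28, -0.27 and -0.58 in normal mice A, B and D and 1.43, 2.19 and 1.38 in tumor mice A, B and C. In collagen I it was -0.14, 0.09 and -0.16 in normal mice and -0.01, 0.40 and 1.09 in tumor mice. The tumor Matrigel arrays stood above the other 9. The tumor minus normal difference in Matrigel was 1.86 ± 0.33 (SE; 3.63-fold, adjusted p = 0.00116) and the collagen minus Matrigel difference in tumor organoids was -1.18 ± 0.33 (2.26-fold, adjusted p = 0.0232). The gel difference did not pass with the mouse as a fixed block (-1.18, adjusted p = 0.0561), without tumor Matrigel B (-0.91, adjusted p = 0.0902) or without tumor collagen A (-0.93, adjusted p = 0.0899), nor with normexp, a model-based background correction (-0.91, adjusted p = 0.0722). A second probe gave 1.18 between tissues (adjusted p over probes = 0.00752) and -0.65 between gels (adjusted p over probes = 0.127). For the first probe the difference of the gel effect between tissues, -1.30 ± 0.46, did not pass (adjusted p = 0.116). It passed with the slide as a fixed block (-1.68, adjusted p = 0.0459).

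Sema3g, a class 3 semaphorin known from blood vessels, was among the genes furthest below normal in tumor organoids. It was at -1.51, -1.53 and -0.37 in normal Matrigel and -3.25, -1.41 and -1.77 in normal collagen. Tumor organoids were at -5.21, -5.19 and -4.79 in Matrigel and -5.59, -5.85 and -6.56 in collagen I, with 1 and 2 of the 3 arrays not well above background. No tumor array reached the lowest normal array. The difference was -3.93 ± 0.48 (15.2-fold, adjusted p = 0.000184) in Matrigel and -3.86 ± 0.48 (adjusted p = 0.000574) in collagen I, where no fold is given since 1 of 3 tumor arrays was well above background. The call ended with normexp (-1.05, adjusted p = 0.0857, and -1.31, adjusted p = 0.154), and in collagen I with the slide as a fixed block (-4.54, adjusted p = 0.105).

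Sema3c, a secreted cue of the same class, was dim. Its tumor Matrigel levels were -4.29, -4.87 and -3.69, with mouse B not well above background, against -3.57, -3.21 and -2.88 in tumor collagen. Normal organoids were at -2.64, -2.97 and -3.70 in Matrigel and -3.40, -3.28 and -3.25 in collagen I. Normal and tumor arrays overlapped in Matrigel, where tumor mouse C was just above normal mouse D. The gel difference in tumor organoids was 1.06 ± 0.33 (2.09-fold, adjusted p = 0.0372) and the tissue difference in Matrigel was -1.18 ± 0.33 (2.27-fold, adjusted p = 0.013). A second Sema3c probe moved the same way, by 2.69 and -2.22. These are among the least steady calls: the gel call ended with quantile normalization (0.75, adjusted p = 0.155), the authors' deposited values (0.76, adjusted p = 0.149), no filter on low signal (1.06, adjusted p = 0.0669), the slide as a fixed block (0.68, adjusted p = 0.321) and with any of 9 arrays left out (0.77 to 1.24, adjusted p 0.051 to 0.14), and with normexp the value was -0.12 for the gel and 0.66 for the tissue. The tissue call ended with quantile normalization (-0.75, adjusted p = 0.106), the authors' deposited values (-0.82, adjusted p = 0.0789), the slide as a fixed block (-0.97, adjusted p = 0.154) and without tumor Matrigel B (-0.89, adjusted p = 0.0547). Sema3b and Sema3e passed in no comparison, with tumor minus normal differences in Matrigel of 0.48 and 0.66 and in collagen I of -0.56 and -0.49. Both passed in Matrigel with quantile normalization (0.77, adjusted p = 0.037, and 1.09, adjusted p = 0.0392).

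All 13 membrane-bound semaphorins were tested. In Matrigel 3 were higher in tumor organoids (Sema4b, Sema4g, Sema6c) and 5 lower (Sema4a, Sema5a, Sema6a, Sema6d, Sema7a). In collagen I 1 was higher (Sema4g) and 4 lower (Sema4a, Sema5a, Sema6d, Sema7a). None of the 13 passed between gels in either tissue.

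Sema6d, a transmembrane semaphorin that binds plexin-A1, was lower in tumor organoids in both gels. It was at 1.23, 1.30 and 0.72 in normal Matrigel and -0.17, 0.37 and 0.64 in normal collagen, against -1.98, -1.78 and -1.78 in tumor Matrigel and -2.29, -2.27 and -1.06 in tumor collagen. Every normal array was above every tumor array. The difference was -2.93 ± 0.34 (7.63-fold, adjusted p = 0.000132) in Matrigel and -2.15 ± 0.34 (4.45-fold, adjusted p = 0.0024) in collagen I. The Matrigel call stood in every alternative run and the collagen call ended only with the slide as a fixed block (-1.70, adjusted p = 0.0829). A second Sema6d probe gave -4.17 and -2.23 between tissues and, unlike the first, a gel difference of 1.88 in tumor organoids (adjusted p over probes = 0.0124).

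Sema7a, the one lipid-anchored semaphorin, was 3.75-fold lower in tumor organoids in Matrigel (-1.91 ± 0.50, adjusted p = 0.00873) and 5.77-fold lower in collagen I (-2.53 ± 0.50, adjusted p = 0.00985). Its normal levels were 1.29, 0.15 and 1.34 in Matrigel and -0.11, 1.68 and 1.69 in collagen I, and its tumor levels were -0.95, -1.07 and -0.92 in Matrigel and -1.82, -1.71 and -0.79 in collagen I. Normal Matrigel B and normal collagen A were lower than the other normal arrays but above all tumor arrays. With the slide as a fixed block neither call stood (-1.64, adjusted p = 0.192, and -2.53, adjusted p = 0.199), and the collagen call also ended without normal collagen C (-2.23, adjusted p = 0.0507).

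Sema4a, a transmembrane cue known also from immune cells, was at 1.90, 2.05 and 2.41 in normal Matrigel and 0.59, 0.62 and 1.29 in tumor Matrigel. In collagen I it was at 1.52, 1.54 and 1.57 in normal and 0.95, 0.51 and 0.40 in tumor organoids. Groups did not overlap in either gel, and the difference was -1.29 ± 0.23 (2.44-fold, adjusted p = 0.00137) and -0.93 ± 0.23 (1.9-fold, adjusted p = 0.033). The collagen call ended when any of 6 arrays was left out, namely normal Matrigel B, normal collagen A, B or C, or tumor collagen B or C (-0.94 to -0.81, adjusted p 0.0524 to 0.115). It also ended with normexp (-0.88, adjusted p = 0.0777), no filter (-0.93, adjusted p = 0.0615) and the slide as a fixed block (-1.22, adjusted p = 0.105).

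Sema5a, a transmembrane semaphorin, differed by -0.88 ± 0.24 in each gel (1.84-fold, adjusted p = 0.0106 in Matrigel and 0.0445 in collagen I). It was at 0.07, 0.29 and 0.29 in normal Matrigel, 0.17, 0.29 and 0.22 in normal collagen, -0.50, -0.85 and -0.64 in tumor Matrigel and -0.28, -1.25 and -0.42 in tumor collagen. Its second probe gave 0.67 and 0.02 and did not pass, the mean of the probes did not pass in either gel (-0.10, adjusted p = 0.721, and -0.43, adjusted p = 0.286), and the collagen call ended with any array but normal Matrigel A or tumor collagen A left out (-0.99 to -0.58, adjusted p 0.0505 to 0.142). Normexp (-0.80, adjusted p = 0.0513), no filter (-0.88, adjusted p = 0.0798) and the slide as a fixed block (-0.70, adjusted p = 0.166) ended it too.

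Sema4g was the membrane semaphorin higher in tumor organoids in both gels. Its levels were -2.40, -2.43 and -2.71 in normal Matrigel, -3.15, -3.21 and -2.55 in normal collagen, -1.597, -1.13 and -2.10 in tumor Matrigel and -1.94, -1.70 and -2.12 in tumor collagen. All 6 tumor arrays were above all 6 normal arrays, by 0.91 ± 0.27 in Matrigel (1.87-fold, adjusted p = 0.0156) and 1.05 ± 0.27 in collagen I (2.07-fold, adjusted p = 0.0339). The Matrigel call ended without normal Matrigel D or tumor Matrigel B (0.67 to 0.81, adjusted p 0.0578 to 0.0624), and the collagen call without any of normal Matrigel B, normal collagen A or B, or a tumor collagen array (0.93 to 1.15, adjusted p 0.0519 to 0.134), with normexp (0.98, adjusted p = 0.0545), no filter (1.05, adjusted p = 0.061) or the slide as a fixed block (1.43, adjusted p = 0.127).

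Sema4b, Sema6c and Sema6a passed between tissues in Matrigel and not in collagen I. Sema4b was at -3.91, -3.79 and -3.96 in normal and -3.05, -2.48 and -2.53 in tumor Matrigel (1.20 ± 0.23, 2.3-fold, adjusted p = 0.00199), and at -4.01, -3.32 and -3.44 in normal and -3.47, -3.02 and -3.01 in tumor collagen (0.43 ± 0.23). This Matrigel call stood in every alternative run. Sema6c was at -0.64, -0.88 and -1.49 in normal and -0.07, 0.40 and -0.30 in tumor Matrigel (1.01 ± 0.30, adjusted p = 0.0169), and at -0.92, -1.12 and -0.71 in normal and -1.14, -0.24 and -1.03 in tumor collagen (0.11 ± 0.30). Sema6a was at -2.46, -1.95 and -1.29 in normal and -2.58, -2.60 and -3.01 in tumor Matrigel (-0.83 ± 0.29, adjusted p = 0.0322), and at -2.11, -2.20 and -1.99 in normal and -2.08, -2.16 and -2.72 in tumor collagen (-0.22 ± 0.29). Sema6c did not pass without normal Matrigel D or tumor Matrigel B (0.77 to 0.81, adjusted p 0.0689 to 0.0712). Sema6a did not pass without normal Matrigel B or D or tumor Matrigel B or C (-0.89 to -0.52, adjusted p 0.0554 to 0.13) or with quantile normalization (-0.47, adjusted p = 0.164), the authors' deposited values (-0.49, adjusted p = 0.145) or the mean of the probes (-0.36, adjusted p = 0.205), its second probe differed by 0.12, and normexp gave 0.07. The second Sema6c probe gave 1.12 (adjusted p over probes = 0.00934). Between gels in tumor organoids Sema6c differed by -0.81 (adjusted p = 0.068) and passed with the mouse as a fixed block (-0.81, adjusted p = 0.0314).

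Sema4c, Sema4d, Sema4f, Sema5b and Sema6b passed in no comparison. Sema4c, a ligand of plexin-B2, was at -1.64 in normal collagen A against 1.11 and 0.80 in mice B and C, and between 0.71 and 1.75 on the other 9 arrays. Without that array its tissue difference in Matrigel passed (0.72, adjusted p = 0.0351, against 0.317 with it). Sema4f was not well above background on any normal Matrigel array (-5.85, -6.88 and -6.96) and was so on all 3 tumor collagen arrays (-5.74, -4.38 and -2.93), with -6.67, -4.42 and -5.52 in normal collagen and -6.10, -5.34 and -4.64 in tumor Matrigel. For Sema5b the chosen probe gave 0.34 and 0.33 between tissues, while the other probes gave -2.84 and -1.90 in Matrigel and -2.64 and -2.73 in collagen I, all with adjusted p over probes under 0.05, so the direction depends on the probe.

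Of the neuropilins, Nrp2, the co-receptor for Sema3f and also for VEGF-C, was higher in tumor organoids in Matrigel. It was at 0.84, 0.89 and 1.28 in normal and 2.88, 2.94 and 3.26 in tumor Matrigel, a difference of 2.02 ± 0.35 (4.06-fold, adjusted p = 0.00115). In collagen I it was at 1.67, 2.16 and 2.02 in normal and 1.68, 2.38 and 3.37 in tumor organoids (0.52 ± 0.35, adjusted p = 0.416). Normal and tumor arrays were apart in Matrigel and overlapped in collagen I, where tumor mouse C was highest. The difference between these differences, -1.499 ± 0.501, did not pass (adjusted p = 0.102) and passed without tumor collagen C (-1.95, adjusted p = 0.0244). The same omission made the gel difference in tumor organoids pass (-0.999, adjusted p = 0.0257, against -0.55, adjusted p = 0.269).

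Nrp1, the co-receptor of Sema3a and of VEGF, was dim and turned on 1 array. It was at -4.30, -3.87 and -2.67 in normal Matrigel and -5.11, -3.89 and -3.75 in normal collagen. Tumor Matrigel was at -7.82, -6.57 and -2.26 and tumor collagen at -7.33, -6.54 and -6.05, with tumor Matrigel C the only tumor array well above background. The difference was -1.93 ± 1.13 (adjusted p = 0.174) in Matrigel and at least 3.12-fold in collagen I (-2.39 ± 1.13, adjusted p = 0.234). Without tumor Matrigel C both passed (-3.58, adjusted p = 0.00182, and -2.39, adjusted p = 0.0261), and a second Nrp1 probe gave -2.75 and -2.28 with all arrays (adjusted p over probes 0.00183 and 0.025). For an "at least" fold, the mean of the group with signal was divided by the faintest signal still well above background on the arrays of the group without.

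The 8 plexins on the array were all tested. In Matrigel Plxna1 and Plxnb2 were higher in tumor organoids and Plxna2, Plxna3 and Plxnb3 were lower, in collagen I Plxna2 was lower, and between gels Plxna3 alone passed, in tumor organoids. Plxna2, which reads class 6 semaphorins and class 3 semaphorins with neuropilins, was at -2.02, -1.52 and -1.52 in normal Matrigel, -3.31, -2.59 and -2.28 in normal collagen, -4.21, -4.57 and -4.58 in tumor Matrigel and -4.32, -4.54 and -4.51 in tumor collagen. No tumor array reached a normal array. The difference was -2.77 ± 0.26 (6.83-fold, adjusted p = 4.87e-05) in Matrigel and -1.73 ± 0.26 (3.32-fold, adjusted p = 0.00202) in collagen I, and the other 2 probes gave -2.43 and -0.93 in Matrigel and -1.74 and -1.20 in collagen I. The calls ended with normexp (-0.39, adjusted p = 0.396, and -0.47, adjusted p = 0.477), and in collagen I with the slide as a fixed block (-1.69, adjusted p = 0.129). Normal collagen lay below normal Matrigel with no overlap, at -1.04 ± 0.26, which had the smallest adjusted p of the 46 genes in the gel comparison of normal organoids (0.194).

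Plxna3, a partner of neuropilins for class 3 semaphorins, was lowest in tumor Matrigel, at -1.33, -1.22 and -1.57. It was at -0.64, -0.44 and -0.07 in normal Matrigel, -0.54, -0.48 and -0.37 in normal collagen and -0.60, -0.52 and -0.81 in tumor collagen. The gel difference in tumor organoids was 0.73 ± 0.18 (1.66-fold, adjusted p = 0.0163), at 0.73, 0.70 and 0.76 within mice A, B and C. The tissue difference in Matrigel was -0.99 ± 0.18 (1.99-fold, adjusted p = 0.00154). A second probe gave 0.12 and -0.53 and passed in neither. The gel call ended with the mean of the probes (0.43, adjusted p = 0.14), with the slide as a fixed block (0.80, adjusted p = 0.108), without tumor collagen A (0.71, adjusted p = 0.0538) and with normexp (0.34, adjusted p = 0.222). With normexp the tissue difference was -0.52 (adjusted p = 0.0504).

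Plxnb2, a receptor for class 4 semaphorins, was at 3.18, 3.02 and 2.77 in normal Matrigel and 3.61, 4.15 and 3.90 in tumor Matrigel (0.89 ± 0.21, 1.86-fold, adjusted p = 0.00508), and at 3.06, 3.20 and 3.13 in normal and 2.91, 3.45 and 3.48 in tumor collagen (0.15 ± 0.21). Plxna1 was at -0.74, -0.53 and -0.50 in normal and -0.06, 0.07 and 0.28 in tumor Matrigel (0.69 ± 0.19, 1.61-fold, adjusted p = 0.0106), and at -0.48, -0.34 and -0.26 in normal and -0.36, 0.08 and 0.22 in tumor collagen (0.34 ± 0.19). A second Plxnb2 probe gave 1.13 in Matrigel (adjusted p over probes = 0.00157). Between gels in tumor organoids Plxnb2 differed by -0.61 (adjusted p = 0.0526) and passed with the mouse as a random block (-0.61, adjusted p = 0.0254). The Plxnb2 tissue call ended with quantile normalization (0.43, adjusted p = 0.0821) and with the authors' deposited values (0.48, adjusted p = 0.0546), and the Plxna1 call with the slide as a fixed block (0.79, adjusted p = 0.0798). Plxnb3, a receptor for Sema5a, was at -3.82, -4.83 and -4.38 in normal Matrigel and was not well above background in tumor Matrigel (-6.92, -5.22 and -6.75), at least 1.9-fold lower (-1.95 ± 0.62, adjusted p = 0.0216). In collagen I it was at -5.01, -2.83 and -4.27 in normal and -5.25, -5.38 and -6.59 in tumor organoids (-1.71 ± 0.62, adjusted p = 0.119). Its Matrigel call ended with quantile normalization (-1.41, adjusted p = 0.0749), without normal Matrigel A or D or tumor Matrigel A or C (-1.97 to -1.64, adjusted p 0.051 to 0.0764), with the authors' deposited values (-1.46, adjusted p = 0.0604) and the slide as a fixed block (-1.57, adjusted p = 0.331), and turned to 1.11 with normexp.

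Plxnc1, the receptor for Sema7a, was well above background on all 3 normal collagen arrays (-4.09, -5.57 and -4.71) and on no tumor array (-7.79, -7.33 and -7.51 in Matrigel, -6.98, -7.75 and -8.12 in collagen I) for the probe used. Another Plxnc1 probe, left out by the filter, was well above background on 1 tumor collagen array. In normal Matrigel the probe used was at -8.19, -8.65 and -4.22, with mouse D alone well above background. It passed in no comparison. Without normal Matrigel D the gel difference in normal organoids was 3.63 (adjusted p = 0.0211, against 2.23 and 0.512 with it) and the tissue difference in collagen I was -2.83 (adjusted p = 0.00149, against 0.0913). Plxnc1 is known from leukocytes. The 10 tested leukocyte markers had a summed level of -0.92 to 0.67 in normal Matrigel and 1.27 to 2.10 in normal collagen. It was 1.62 to 2.30 in tumor Matrigel and -0.35 to 0.41 in tumor collagen. The part of these markers in the Plxnc1 levels was not tested. Plxna4 and Plxnb1 did not pass. Their tissue differences in Matrigel were -0.80 and 0.25, a second Plxna4 probe gave -3.79 in Matrigel and -3.71 in collagen I (adjusted p over probes 0.000511 and 0.00251), and a second Plxnb1 probe gave 0.55 between gels in tumor organoids (adjusted p over probes = 0.0415).

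Of the 5 ephrin-A ligands, Efna1 and Efna5 were higher in tumor organoids in Matrigel, and none passed in the other comparisons. Efna1, a ligand of EphA2, was at 0.82, 0.40 and 0.31 in normal Matrigel, 1.05, 1.26 and 1.05 in normal collagen, 1.59, 2.30 and 2.10 in tumor Matrigel and 0.89, 0.96 and 2.22 in tumor collagen. Tumor and normal arrays were apart in Matrigel, by 1.48 ± 0.34 (2.8-fold, adjusted p = 0.00431), and the call stood in every alternative run. In collagen I they overlapped (0.24 ± 0.34, adjusted p = 0.724), with tumor mouse C above the rest. Without tumor collagen C the gel difference in tumor organoids passed (-1.07, adjusted p = 0.016, against -0.64 and 0.181), as did the difference of the gel effect between tissues (-1.68, adjusted p = 0.0309, against -1.25 and 0.134).

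Efna5 was at 2.42, 2.72 and 2.46 in normal and 3.66, 3.39 and 2.97 in tumor Matrigel (0.80 ± 0.21, 1.75-fold, adjusted p = 0.00856), and at 3.09, 3.13 and 3.25 in normal and 2.97, 3.38 and 2.91 in tumor collagen (-0.07 ± 0.21). A second Efna5 probe gave 1.35 in Matrigel (adjusted p over probes = 0.000476), and for it the gel effect differed between tissues (-1.48, adjusted p over probes = 0.0334), while the first gave -0.87 (adjusted p = 0.104). The Matrigel call of the first probe ended with normexp (0.49, adjusted p = 0.11), quantile normalization (0.38, adjusted p = 0.148), the authors' deposited values (0.30, adjusted p = 0.286) and the slide as a fixed block (0.78, adjusted p = 0.06). Efna3 had tumor minus normal differences of 2.07 ± 0.93 and 2.02 ± 0.93 with no overlap in either gel, but spread widely, from -2.21 to -0.27 in tumor Matrigel and from -3.08 to 1.12 in tumor collagen, and did not pass (adjusted p = 0.0838 and 0.22). Tumor mouse C was the highest for Efna3 in each gel, and without tumor collagen C the Matrigel difference passed (adjusted p = 0.00702). Efna4 differed by 0.72 and 0.57 and Efna2 by -0.53 and -0.08 in Matrigel and collagen I, and neither passed. Efna4 passed in Matrigel without normal Matrigel A (0.94, adjusted p = 0.0343), tumor Matrigel A (0.98, adjusted p = 0.0253) or tumor collagen C (0.72, adjusted p = 0.0421).

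Efnb2, the ligand of EphB4 and a marker of arteries, was the ephrin that passed between gels. In tumor organoids it was at -0.15, -0.09 and -0.09 in Matrigel and 0.28, 1.03 and 1.04 in collagen I, and in normal organoids at -0.21, -0.11 and 0.46 in Matrigel and 0.01, 0.21 and -0.04 in collagen I. The 3 tumor collagen arrays were above the 3 tumor Matrigel arrays, by 0.44, 1.12 and 1.12 within mice A, B and C. The difference was 0.89 ± 0.24 (1.86-fold, adjusted p = 0.0206) and 0.02 ± 0.24 in normal organoids, and the difference between these, 0.88 ± 0.34, did not pass (adjusted p = 0.138). A second probe gave 1.41 between gels in tumor organoids (adjusted p over probes = 0.004). The call ended without tumor Matrigel B, tumor collagen B or tumor collagen C (0.77 to 0.90, adjusted p 0.0545 to 0.0635), with the slide as a fixed block (0.61, adjusted p = 0.197) and with normexp (0.82, adjusted p = 0.0549). Without tumor collagen A, Efnb2 also passed between tissues in collagen I (0.97, adjusted p = 0.0207, against 0.72 and 0.0935).

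Efnb1 was higher in tumor organoids in Matrigel, at 2.56, 1.99 and 1.39 in normal and 2.75, 3.13 and 3.02 in tumor organoids (0.99 ± 0.30, 1.98-fold, adjusted p = 0.0194). In collagen I it was at 2.51, 2.28 and 2.27 in normal and 2.44, 2.86 and 3.36 in tumor organoids (0.53 ± 0.30). Efnb3 was dim and lower, at -4.70, -4.23 and -3.70 in normal and -5.36, -4.92 and -6.14 in tumor Matrigel (-1.26 ± 0.35, 2.4-fold, adjusted p = 0.0113). Only 2 of the 3 tumor Matrigel arrays were well above background for it. In collagen I it was at -5.20, -4.61 and -4.33 in normal and -4.64, -4.71 and -4.80 in tumor organoids. The Efnb1 call ended with normexp (0.67, adjusted p = 0.0717), quantile normalization (0.65, adjusted p = 0.0952), the authors' deposited values (0.48, adjusted p = 0.217), with the batches averaged (0.77, adjusted p = 0.0689) and without normal Matrigel D or tumor Matrigel B (0.69 to 0.90, adjusted p 0.064 to 0.0796). The Efnb3 call ended with the authors' deposited values (-0.63, adjusted p = 0.11) and the slide as a fixed block (-1.23, adjusted p = 0.157), and the value turned to 1.01 with normexp.

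Epha2, a receptor of ephrin-A1 that is often abundant in epithelial tumors, was high in tumor Matrigel and not in tumor collagen. It was at 5.68, 6.02 and 5.08 in tumor Matrigel, against 3.81, 4.39 and 3.94 in tumor collagen, 3.62, 3.44 and 3.98 in normal Matrigel and 4.07, 3.86 and 3.73 in normal collagen. All 3 tumor Matrigel arrays were above the other 9, which overlapped each other. In tumor organoids it was 2.91-fold lower in collagen I (-1.54 ± 0.26, adjusted p = 0.00348), at -1.87, -1.62 and -1.14 within mice A, B and C, while in normal organoids the difference was 0.20 ± 0.26 (adjusted p = 0.905). Tumor exceeded normal organoids 3.76-fold in Matrigel (1.91 ± 0.26, adjusted p = 0.00034) and differed by 0.16 ± 0.26 in collagen I (adjusted p = 0.761). The gel and tissue calls in these comparisons stood in every alternative run (adjusted p 0.00125 to 0.0353 for the gel). No alternative scaled the arrays to the spike-ins, which stood higher against the 75th percentile in tumor Matrigel than in the other groups.

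The gel effect on Epha2 differed between tumor and normal organoids by -1.75 ± 0.37 (adjusted p = 0.0413), near the threshold. It did not pass with quantile normalization (-1.34, adjusted p = 0.0647), the authors' deposited values (-1.33, adjusted p = 0.0758), normexp (-1.44, adjusted p = 0.18), no filter on low signal (-1.75, adjusted p = 0.085), the mouse (-1.98, adjusted p = 0.115) or slide (-1.69, adjusted p = 0.0501) as a fixed block, or without any of normal Matrigel B or D, a normal collagen array, tumor Matrigel B, or tumor collagen A or C (-1.90 to -1.53, adjusted p 0.0536 to 0.119). With the mouse as a random block it passed (-1.78, adjusted p = 0.0181).

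Epha4, a receptor for ephrins of both classes, ran opposite to Epha2. It was at -1.08, -1.56 and -0.64 in tumor Matrigel and 0.46, -0.11 and 0.56 in tumor collagen, against 0.28, 0.47 and 0.77 in normal Matrigel and 1.08, 0.93 and 0.97 in normal collagen. The 3 tumor Matrigel arrays were below the other 9. The gel difference in tumor organoids was 1.40 ± 0.26 (2.63-fold, adjusted p = 0.00481), at 1.55, 1.45 and 1.20 within mice A, B and C, and in normal organoids 0.49 ± 0.26 (adjusted p = 0.636). The difference between these, 0.91 ± 0.37, did not pass (adjusted p = 0.153). Tumor was below normal by -1.597 ± 0.259 (3.03-fold, adjusted p = 0.000769) in Matrigel and by -0.69 ± 0.26 (adjusted p = 0.133) in collagen I. A second probe gave 1.18 between gels in tumor organoids and -0.84 between tissues in Matrigel (adjusted p over probes 0.0202 and 0.0476). Of the alternatives run, only the slide as a fixed block ended the gel call (1.52, adjusted p = 0.0568), and none ended the Matrigel call.

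Epha1 was higher in tumor organoids in both gels. It was at 2.31, 2.22 and 2.41 in normal Matrigel, 2.46, 2.76 and 2.31 in normal collagen, 3.40, 3.73 and 3.37 in tumor Matrigel and 3.11, 3.31 and 3.80 in tumor collagen. All 6 tumor arrays were above all 6 normal arrays, by 1.19 ± 0.21 (2.28-fold, adjusted p = 0.00122) in Matrigel and 0.90 ± 0.21 (1.86-fold, adjusted p = 0.0235) in collagen I. The Matrigel call stood in every alternative run, and the collagen call ended with normexp (0.83, adjusted p = 0.0546), the authors' deposited values (0.76, adjusted p = 0.0627), the slide as a fixed block (1.03, adjusted p = 0.107) and without normal collagen A or C or tumor collagen B or C (0.70 to 0.95, adjusted p 0.0561 to 0.112).

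Epha7 was lower in tumor organoids, at -0.21, 0.04 and 0.23 in normal and -0.86, -0.89 and -0.70 in tumor Matrigel (-0.84 ± 0.21, 1.79-fold, adjusted p = 0.00789), and at 0.23, 0.18 and 0.17 in normal and -0.12, -0.89 and -0.82 in tumor collagen (-0.80 ± 0.21, 1.75-fold, adjusted p = 0.0409). The Matrigel call stood in every alternative run. The collagen call ended without any of 8 arrays, the exceptions being normal Matrigel A and D, tumor Matrigel C and tumor collagen A (-0.82 to -0.66, adjusted p 0.0506 to 0.144), and with normexp (-0.69, adjusted p = 0.1), no filter (-0.80, adjusted p = 0.0765) and the slide as a fixed block (-0.85, adjusted p = 0.155). A second probe gave -1.27 and -1.23 (adjusted p over probes 0.0071 and 0.0397).

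Epha3, an EphA receptor, was at -5.97, -4.55 and -4.82 in normal Matrigel, where mouse A was not well above background, and at -4.53, -4.42 and -3.77 in normal collagen. It was well above background on no tumor array, at -7.80, -7.24 and -7.40 in Matrigel and -8.50, -6.39 and -8.09 in collagen I. Tumor organoids were at least 1.11-fold lower in Matrigel (-2.37 ± 0.52, adjusted p = 0.00378) and at least 3.15-fold lower in collagen I (-3.42 ± 0.52, adjusted p = 0.00214). With normexp these became 1.12 (adjusted p = 0.0465) and -0.11 (adjusted p = 0.902), so for this dim gene the Matrigel direction depends on the background correction.

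Among the EphB receptors Ephb1, a receptor for B-class ephrins, had the largest tissue difference of the 46 genes in each gel. It was at -1.22, -1.44 and -1.22 in normal Matrigel and -1.82, -1.67 and -1.21 in normal collagen. In tumor organoids it was at -6.06, -6.01 and -7.57 in Matrigel, none well above background, and at -5.45, -5.91 and -6.07 in collagen I, where mouse A was. The highest tumor array, at -5.45, was below the lowest normal array, at -1.82. Tumor Matrigel was at least 15.7-fold lower than normal Matrigel (-5.25 ± 0.37, adjusted p = 1.18e-05) and tumor collagen was below normal collagen by -4.25 ± 0.37 (adjusted p = 5.94e-05), a difference with no exact fold because 2 of the 3 tumor arrays were not well above background. Normexp shortened the differences to -1.07 and -1.80 and both still passed, and with the slide as a fixed block the collagen difference was -3.67 (adjusted p = 0.0802).

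Ephb4, the receptor of ephrin-B2, was also highest in tumor Matrigel. It was at 2.59, 3.02 and 2.58 in tumor Matrigel, against 1.89, 2.04 and 2.05 in tumor collagen, 1.67, 1.498 and 1.601 in normal Matrigel and 1.94, 1.83 and 1.63 in normal collagen. All 3 tumor Matrigel arrays were above the other 9. In tumor organoids it was 1.67-fold lower in collagen I (-0.74 ± 0.17, adjusted p = 0.0113), at -0.69, -0.99 and -0.53 within mice A, B and C. Tumor exceeded normal organoids 2.21-fold in Matrigel (1.14 ± 0.17, adjusted p = 0.000501) and differed by 0.19 ± 0.17 in collagen I (adjusted p = 0.551). The difference of the gel effect between tissues was -0.95 ± 0.24 (adjusted p = 0.0595), and passed with the mouse as a random block (-0.96, adjusted p = 0.0292) and without normal Matrigel A (-0.99, adjusted p = 0.0422). A second probe gave -0.70 between gels in tumor organoids and 0.89 between tissues in Matrigel (adjusted p over probes 0.0268 and 0.00439). The gel call ended with normexp (-0.52, adjusted p = 0.066) and the slide as a fixed block (-0.77, adjusted p = 0.0773).

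Ephb3 was higher in tumor Matrigel, at 3.55, 4.20 and 3.75 against 3.18, 3.16 and 2.88 in normal Matrigel (0.76 ± 0.19, 1.69-fold, adjusted p = 0.00698), and at 3.67, 3.41 and 3.51 in tumor against 3.25, 3.30 and 3.34 in normal collagen (0.23 ± 0.19). Ephb6, an EphB receptor whose kinase is inactive, was at -0.56, -0.26 and 0.49 in tumor and -0.73, -1.06 and -1.97 in normal Matrigel (1.15 ± 0.40, 2.21-fold, adjusted p = 0.0351), and at -0.53, 0.07 and 0.75 in tumor and -1.35, -0.81 and -1.14 in normal collagen (1.19 ± 0.40, adjusted p = 0.0995). For each gene the tumor and normal arrays of a gel did not overlap. The Ephb3 call ended with quantile normalization (0.29, adjusted p = 0.171) and the authors' deposited values (0.27, adjusted p = 0.2), and the Ephb6 call without normal Matrigel B or D or tumor Matrigel B or C (0.79 to 1.24, adjusted p 0.0584 to 0.141). Ephb6 passed in collagen I without tumor collagen A (1.51, adjusted p = 0.0482). Ephb2 passed in no comparison (-0.66 in Matrigel and -0.93 in collagen I). Tumor collagen C was at -1.72 against -3.80 and -3.17 in the other tumor collagen mice, and without it both tissue differences passed (-0.66, adjusted p = 0.0384, and -1.52, adjusted p = 0.00767).

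**Figure D3:**
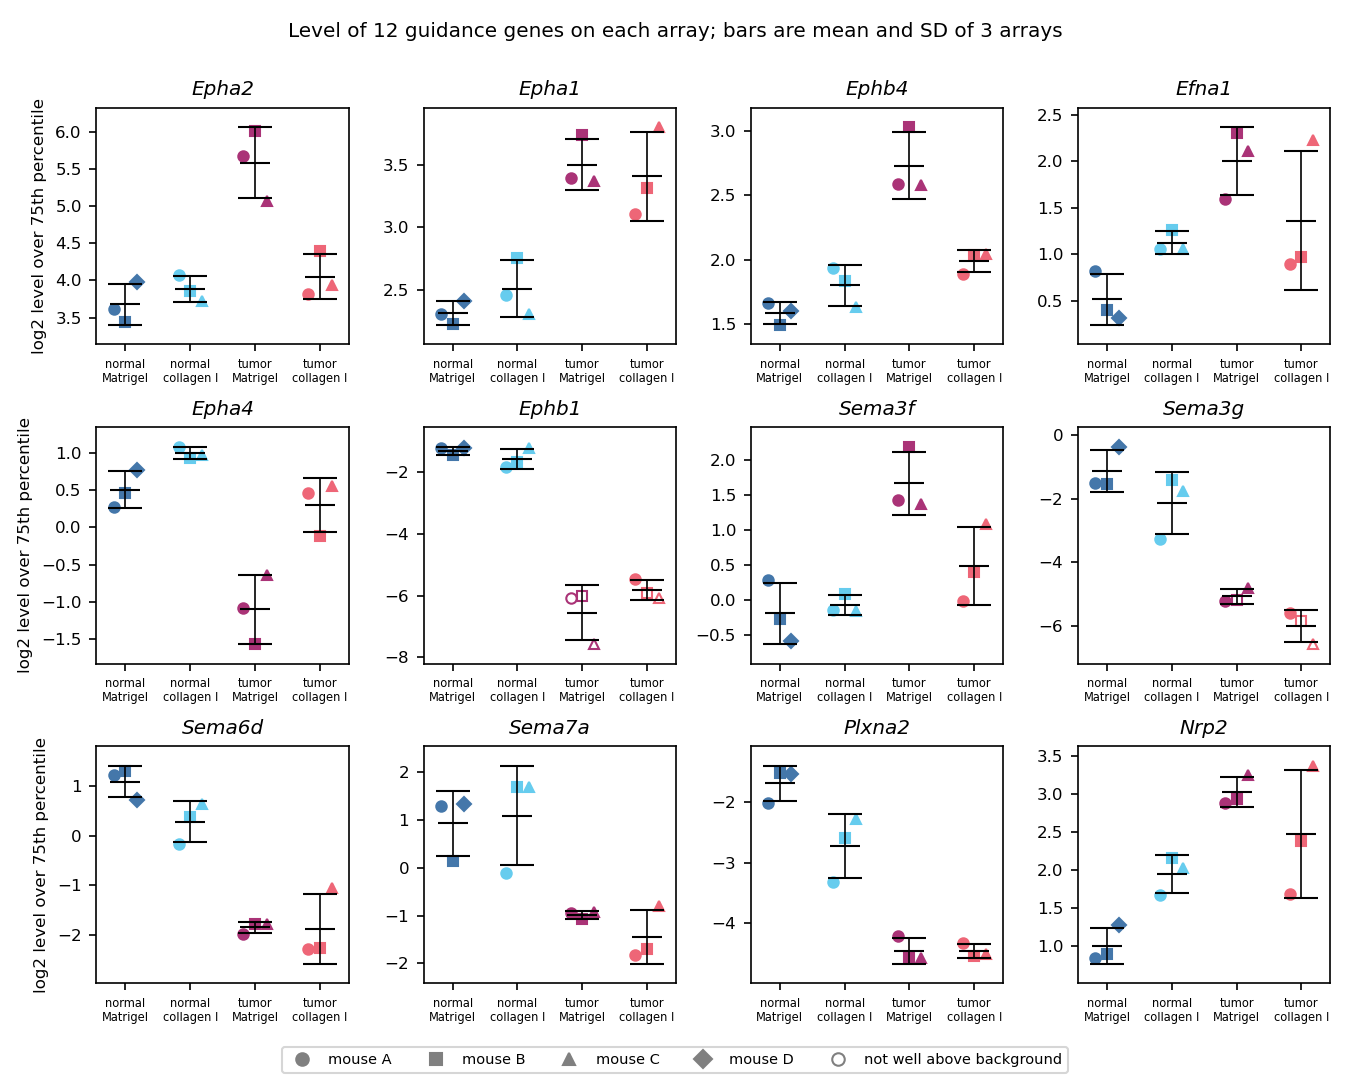
Level of 12 of the genes that passed, as log2 signal over the 75th percentile of the array, on each array of the 4 groups. Symbols are mice, open symbols are arrays where the gene was not well above background, and bars are the mean and SD of 3 arrays. Epha2 and Ephb4 are highest and Epha4 is lowest in tumor Matrigel, while Ephb1, Sema3g, Sema6d, Sema7a and Plxna2 are lower in tumor organoids in each gel.

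**Figure D4:**
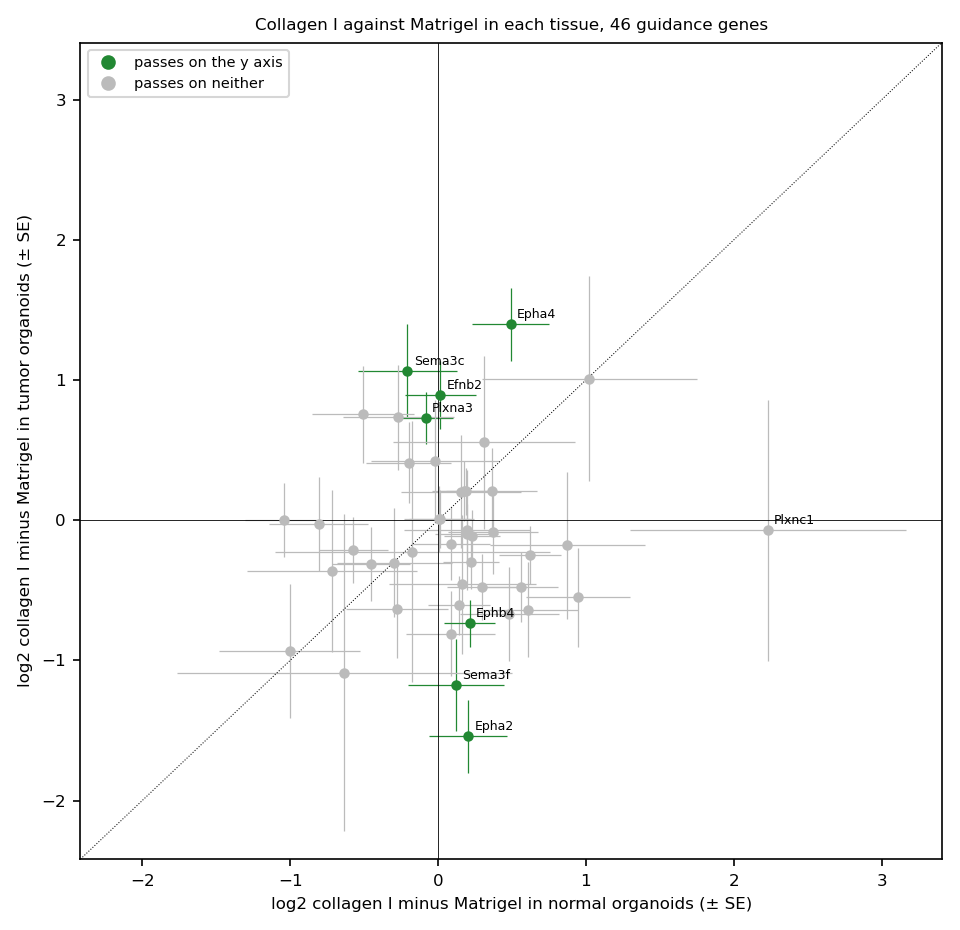
Collagen I minus Matrigel difference of the 46 tested genes in normal organoids (x axis) and in tumor organoids (y axis), in log2 units with standard errors, coloured by whether a gene passed. The 7 genes that passed did so in tumor organoids, with Epha4 at 1.40 and Epha2 at -1.54, and lie between -0.21 and 0.49 in normal organoids.

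Slides held up to 3 groups. Slide 3, with normal Matrigel D and tumor Matrigel B side by side, gave the same direction for all 30 genes that passed between tissues in Matrigel, slide 5, with normal collagen B and tumor collagen C, for all 11 that passed in collagen I, and slide 8, with tumor Matrigel C and tumor collagen A, for all 7 that passed between gels. On slide 8 the gel difference was -1.26 for Epha2, 1.101 for Epha4, -0.68 for Ephb4 and 0.12 for Sema3c. These arrays also enter the group means. Of these calls, only that of Sema3c between tissues in Matrigel had overlapping groups. For every other call the direction on a slide was fixed in advance, so the slide pairs are no separate check of direction. With the slide as a random block all 49 calls stood, and as a fixed block, which leaves 2 residual degrees of freedom, 27 of the 49 did.

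Markers of other cell types differed between the tissues. Of all genes, 26.3% were higher and 25.5% lower in tumor organoids in Matrigel, and 3.76% and 5.13% in collagen I. Of 11 tested endothelial markers, 10 were lower in tumor organoids in each gel (median -3.86 in Matrigel and -4.32 in collagen I), with a summed level of 3.09 to 4.30 on normal arrays and -0.88 to 0.56 on tumor arrays. Among the defining ones Cdh5, the endothelial cadherin, was lower in tumor organoids (-5.09 and -6.32), and Tie1 was well above background on no tumor array. Of 12 fibroblast and pericyte markers, 12 were lower in Matrigel and 9 in collagen I (median -2.95 and -2.38), with a summed level of 5.04 to 7.33 on normal and 2.46 to 5.12 on tumor arrays. Of 12 basal and myoepithelial markers 5 were lower and 1 higher in each gel, and their summed level, 7.47 to 9.12 on normal and 7.21 to 9.34 on tumor arrays, overlapped. The mean of their log2 levels did not, at 2.57 to 3.26 on normal and 0.96 to 1.84 on tumor arrays. Of 14 luminal markers, 6 were higher and 4 lower in Matrigel and 3 lower in collagen I, with a summed level of 9.29 to 9.82 on normal and 9.37 to 10.66 on tumor arrays, and all but Pgr were well above background on some array of each group. Of 10 tested leukocyte markers, 1 was higher in Matrigel and 6 were lower in collagen I, of 2 adipocyte markers 1 was lower in each gel, and of 6 Schwann and nerve markers 2 were higher and 1 lower in Matrigel and 1 lower in collagen I. Several of the genes described, such as Sema3g, Nrp1 and Efnb2, are known in vessels. Of these 3 only Sema3g passed between tissues (-3.93 in Matrigel and -3.86 in collagen I). Nrp1 differed by -1.93 and -2.39 and Efnb2 by -0.15 and 0.72. The part of the cell type markers in the tissue differences was not tested. In such samples, fewer cells of a type and less RNA per cell cannot be told apart.

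Between gels in tumor organoids, 4 of 11 endothelial markers (median -1.09) and 5 of 14 luminal markers (median -0.43) were lower in collagen I. Of 12 fibroblast and pericyte markers 2 were higher (median 1.13), and of 12 basal and myoepithelial markers 1 was higher (median 0.31). Of 10 leukocyte markers 1 was lower, of 6 Schwann and nerve markers 1 was lower, and of 2 adipocyte markers 0 passed. Over all genes 15.3% were higher and 12.3% lower, with a median of -0.06. The part of these markers in the gel differences of Epha2, Epha4, Ephb4, Sema3f, Sema3c, Efnb2 and Plxna3 was not tested.

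Genes that carry these signals inside the cell were followed as lists. Of 42 tested plexin and neuropilin transducers, 4 were higher and 3 lower in collagen I in tumor organoids, 12 higher and 10 lower in tumor organoids in Matrigel, and 1 higher and 5 lower in tumor organoids in collagen I, where 27.6%, 51.8% and 8.89% of all genes passed. The list's medians were -0.04, -0.04 and 0.03, beside -0.06, 0.10 and 0.05 over all genes. Crmp1 and Dpysl3, collapsin response mediators of semaphorin signals, were lower in tumor organoids, at -4.06 and -4.88 in Matrigel and -3.14 and -3.82 in collagen I (adjusted p 7.32e-06 to 0.000135). Rnd1, a small GTPase that binds plexins, was higher by 2.46 and 1.62 (adjusted p = 0.000184 and 0.0067). Kdr, a VEGF receptor that acts with neuropilins and marks endothelium, was lower (-3.44 and -4.02) (adjusted p = 0.000103 and 8.8e-05).

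Of 39 tested Eph and ephrin transducers, 5 were higher and 5 lower in collagen I in tumor organoids, 11 higher and 10 lower in tumor organoids in Matrigel, and 3 higher and 0 lower in collagen I by limma, against the same 27.6%, 51.8% and 8.89% of all genes. The medians were -0.06, 0.13 and -0.02. Kalrn was higher in tumor collagen than tumor Matrigel by 1.94 (adjusted p = 0.00331), and Yes1, a Src family kinase, by 1.23 (adjusted p = 0.00949). Abl2, a tyrosine kinase, was higher in tumor organoids by 2.05 in Matrigel and 0.81 in collagen I (adjusted p = 5.36e-05 and 0.0284), and Adam19, a metalloprotease, was lower in Matrigel, at -2.49 (adjusted p = 0.00582). Abl2 was the list's 1 gene whose gel effect differed between tissues (-1.24, adjusted p = 0.0462).

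Of 25 tested genes of other guidance systems, 3 were higher and 4 lower in collagen I in tumor organoids, 7 higher and 6 lower in tumor organoids in Matrigel, and 0 higher and 4 lower in collagen I by limma, beside 27.6%, 51.8% and 8.89% of all genes. The medians were -0.05, 0.07 and 0.15. Slit2, a secreted ligand of Robo receptors, was higher in tumor collagen than tumor Matrigel by 3.12 (adjusted p = 0.00261), lower in tumor organoids, at -5.52 in Matrigel (adjusted p = 3.41e-05) and -2.22 in collagen I (adjusted p = 0.0173), and its gel effect differed between tissues by 3.31 (adjusted p = 0.0386). Robo4, an endothelial member of the Robo family, was lower in tumor organoids, at -3.86 and -4.81 (adjusted p = 7.32e-06 and 8.14e-06). Unc5a, a netrin receptor, was lower in Matrigel, at -4.26 (adjusted p = 0.00491), and Slit3 was lower in both gels, at -4.09 and -2.87 (adjusted p = 0.000197 and 0.00523). In normal organoids no gene of the 3 lists passed between gels by limma. Of the 42, 39 and 25 tested, 5, 2 and 6 had an unadjusted p under 0.05, against 9.05% of all genes.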

How the data were processed

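RNA of mammary organoids was hybridised to 1-colour Agilent arrays. The deposited intensity values are Feature Extraction output (version 9.5 per the file headers, 9.1 per the submitters' processing notes), background-subtracted within each array. The authors' deposited log2 values, of unstated centring, served as an alternative. Log2 processed signals were centred on each array's 75th percentile, control and outlier-flagged spots were left out, and spots of a probe were averaged. Probes had to be well above background on all 3 arrays of at least 1 group, and a gene was its probe with the highest mean. Limma 3.58.1 (R 4.3.3) was fitted with 1 term per group to 12 arrays of the later batch, with Benjamini-Hochberg adjustment over 17788 genes, and tested on simulated data. With 3 arrays per group their number limits the precision, and an exact permutation test of 3 against 3 could not go below 0.1. All genes of the families could be named. Those that passed, or that were well above background in 1 group and on no array of another, are given on every array. The 3 lists of transducers and other guidance genes are given by counts and at most 4 passing genes, picked by size of difference. Cell type markers are given by counts, with Cdh5, Tie1 and Pgr named. Members and lists were chosen with earlier results of these data known. A letter is the same mouse in both gels, and deviations of a mouse's arrays from their group means correlated at 0.232 and -0.247 in normal mice A and B and at -0.0609, 0.324 and 0.422 in tumor mice A, B and C. The mouse was fitted as a fixed and a random block. Other alternatives were the scaling, background correction, filters, probe rule, batches, slide, variance trend and each array left out. No scaling used the spike-ins.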

Additional observations from a re-analysis of the deposited data

Results flagged for a closer look

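The gel difference of Epha2 was -1.54 in tumor and 0.20 in normal organoids, and the difference between these, tested by the interaction term in limma, was -1.75 (adjusted p = 0.0413). It was lost in 14 of 25 alternatives, with adjusted p from 0.0181 to 0.18 over all 25.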

How the results depend on the processing

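Of the 49 calls, 1 of 7 between gels in tumor organoids (Epha2), 12 of 30 between tissues in Matrigel, 0 of 11 in collagen I and 0 of 1 of the differences between tissues stood in every alternative run that tested them. The run on probes well above background on all 12 arrays tested 39 of the 49. Ephb1, counted among the 12, was not tested in it. Between gels in tumor organoids the count of 7 fell to 2 with normexp and 2 with the slide as a fixed block. In collagen I the count of 11 became 3 with normexp, 7 with no filter and 1 with the slide as a fixed block. For the difference of the gel effect, the count of 1 became 0 with normexp, quantile normalization, the authors' deposited values, no filter and the mouse as a fixed replicate block, 2 with the mean of probes, the mouse as a random replicate block, the slide as a random block and the variance trend, and 5 with the batches averaged. With the slide as a fixed block the count stayed at 1, but the gene was Sema3f (-1.68, adjusted p = 0.0459) and not Epha2 (-1.69, adjusted p = 0.0501). With 1 array left out the counts were 0 to 1 between gels in normal organoids, 4 to 7 in tumor organoids, 24 to 33 between tissues in Matrigel, 6 to 12 in collagen I and 0 to 4 for the difference. With normexp 6 calls changed direction: Sema3c between gels (-0.12), and between tissues in Matrigel Efnb3 (1.01), Epha3 (1.12), Plxnb3 (1.11), Sema3c (0.66) and Sema6a (0.0723). In that comparison 77.0% of all calls were higher with normexp and 64.2% with no filter, against 50.8%, and the median over all genes was 0.44 and 0.39, against 0.10. The mouse blocks ended no call but Epha2's difference (-1.98, adjusted p = 0.115) and Sema3f between gels (-1.18, adjusted p = 0.0561), both with the fixed block, which could not be fitted between tissues because each mouse has 1 tissue.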
